A study of Mus musculus with 10 samples.

Results

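The Notch pathway lets neighbouring cells talk to each other through membrane proteins. A ligand on one cell, of the Delta-like or Jagged family, engages a Notch receptor on the next, the receptor is cut, and its intracellular domain moves to the nucleus, joins the DNA-binding protein RBPJ and turns on transcriptional repressors of the Hes and Hey families. In the embryonic cerebral cortex these repressors hold radial glia, the stem cells of the tissue, in the progenitor state, while the newborn neuronal cells beside them display the ligands.

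The 10 genes described here are the receptors Notch1, Notch2 and Notch3, the ligands Dll1, Dll3 and Jag1, the DNA-binding partner Rbpj and the effectors Hes1, Hes5 and Hey1. They were chosen by name, out of 43629 gene identifiers in the count tables, and all 10 were found by symbol and passed the filter on low counts. Their transcripts were followed by RNA-seq in dorsal telencephalon, the tissue that forms the cerebral cortex, of C57BL/6 mouse embryos at E14.5. The comparison asks whether their levels differ when Dot1l, which encodes a histone H3 lysine 79 methyltransferase, is deleted. The 5 control embryos were Dot1l f/+ without Cre, so they carried 1 floxed Dot1l allele. The 5 Dot1l-cKO embryos were Dot1l f/f with 1 allele of Cre recombinase, which is expressed in telencephalic progenitors. The Cre allele and the loss of Dot1l came together in every Dot1l-cKO embryo and cannot be told apart in this design. In these bulk samples, fewer cells that express a gene and less RNA of it per cell cannot be told apart either.

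Total counts ranged from 54202349 to 66556034 per sample. Replicates 2 and 3 of both groups share the number 57 in the column headers of the deposited normalised tables, a number that no source explains, and these 4 libraries had 0.0471% to 0.492% of their counts in mitochondrial rRNA against 5.79% to 10.9% in the other 6. They are called the header-57 libraries here, and differences are also given within them and within the other 6. Dot1l itself had 37.3 ± 4.04 CPM (counts scaled to a common library total) in the control group against 39.4 ± 11.7 CPM in the Dot1l-cKO group (SD, n = 5), with an edgeR adjusted p-value of 0.864. The Dot1l count sums all exons and so does not check the deletion. Markers of dorsal telencephalon were well expressed, with average log2 CPM over all samples of 6.35 for Emx1, 6.75 for Pax6, 8.09 for Eomes, 7.71 for Tbr1 and 9.02 for Neurod6. The 7 markers listed for this tissue, not all named here, had log2 fold changes from -0.52 to 0.20, and 1 was called. That was Pax6, lower in Dot1l-cKO (log2 fold change -0.36, edgeR adjusted p-value 0.0294), a call lost without control replicates 1, 2 or 4 or Dot1l-cKO replicates 1, 2, 3 or 5 (adjusted p-values of 0.053 to 0.0801).

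The end of the pathway is a short DNA motif bound by RBPJ. Hes5 is a textbook direct target, and it was also the member with the most transcript per length, so its promoter is shown here with the motif GTGGGAA in capitals where it lies on the plus strand and its reverse complement TTCCCAC in capitals where it lies on the minus strand. The window is the 250 bases before the RefSeq start of Hes5, GRCm38.p6 chr4:154960673-154960922, plus strand.

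Hes5 promoter: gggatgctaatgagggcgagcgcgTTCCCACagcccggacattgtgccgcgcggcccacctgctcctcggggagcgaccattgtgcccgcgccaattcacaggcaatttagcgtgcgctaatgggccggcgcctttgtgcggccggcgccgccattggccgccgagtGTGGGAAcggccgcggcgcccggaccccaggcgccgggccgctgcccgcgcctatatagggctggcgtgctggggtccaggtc

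The minus-strand match begins 226 bases and the plus-strand match 83 bases before the start. Of 32851 RefSeq windows of 300 bases (250 before and 50 after a start), 6.38% held the motif on either strand. Promoter windows were found for 8 of the 10 members, all but Hes1 and Hey1, and 1 of the 8, Hes5, held the motif. A match is a run of letters and not evidence of binding, and no match in this window says nothing about RBPJ elsewhere.

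Of the 10 members, 1 was called lower in Dot1l-cKO and none higher by edgeR's quasi-likelihood test at an adjusted p-value under 0.05. Over all 17039 genes tested the background was 7.11% called in either direction and 1.44% called lower, 5.67% higher. With the replicate number as a block Hey1 was again the called member (log2 fold change -0.36, edgeR adjusted p-value 0.0297), and the background was 9.41%, with 2.91% lower and 6.51% higher. DESeq2 too called Hey1 alone of the 10 (adjusted p-value 0.000595), over a background of 10.4%, with 3.43% lower and 6.98% higher. The called member was Hey1, whose mean in Dot1l-cKO was 77.3% of the control mean. The other 9 members had means between 80.6% and 90.3% of control and did not pass the test. All 10 log2 fold changes were below 0, with a median of -0.21, beside a median of -0.01 and 51.2% below 0 over all genes tested. The members share samples and pathway, so the common sign is a description and was not tested. Each member's expression in every sample is plotted first.

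**Figure D1:**
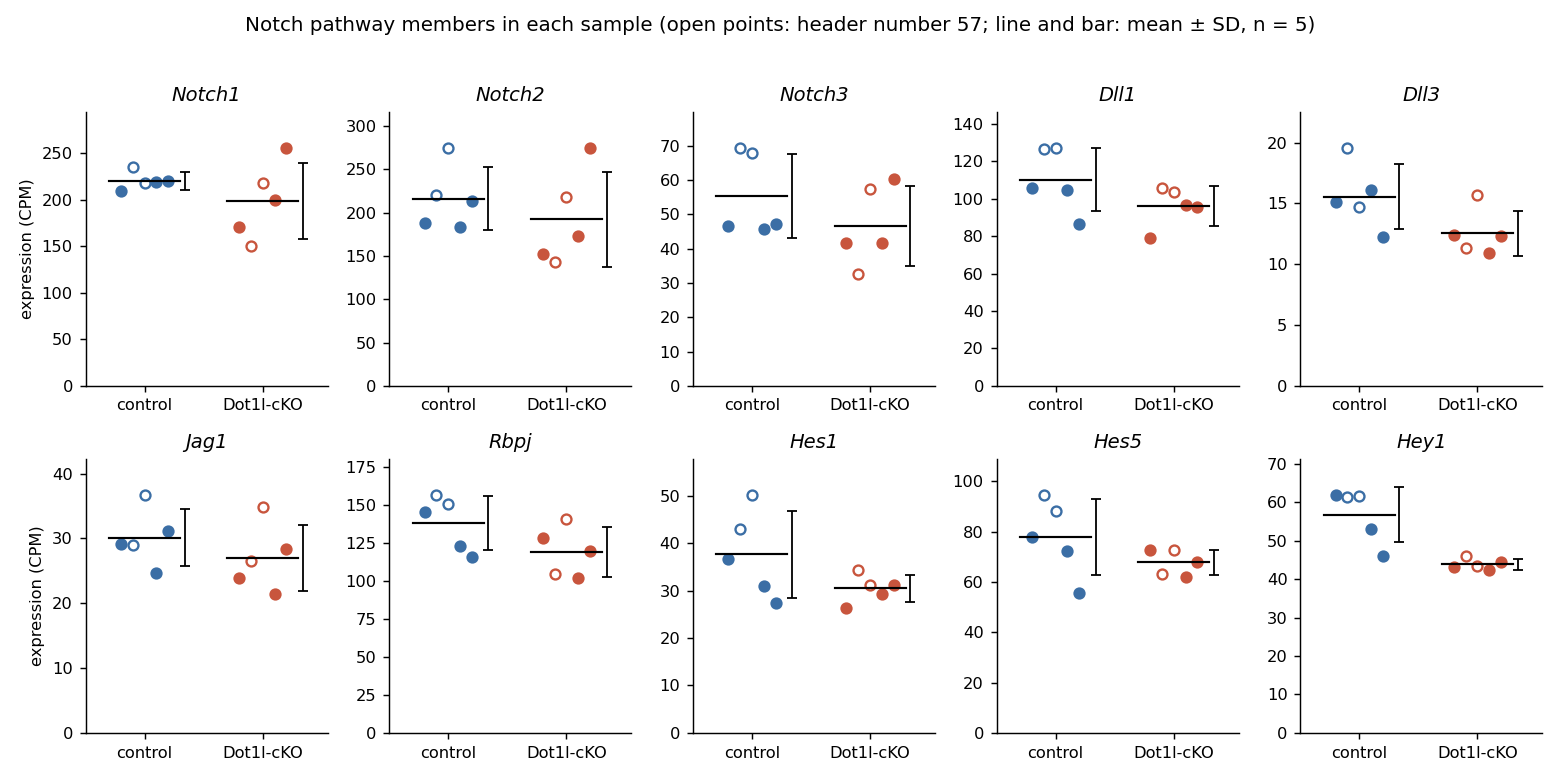
Expression (CPM, each axis from 0) of the 10 members in each sample, with control in blue and Dot1l-cKO in red. Points are samples, open points are the header-57 libraries, and the line and bar give the mean ± SD (n = 5 a group). For Hey1 the control samples, 46.2 to 61.9 CPM, all sit above the Dot1l-cKO samples, 42.4 to 46.1 CPM, while the groups overlap for the other 9 members.

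Notch receptors are cut after a ligand binds, and the freed intracellular part carries the signal. Notch1 (ENSMUSG00000026923, chromosome 2 from 26457903 to 26516663, minus strand of GRCm38, as for all coordinates of genes here) had 209, 235, 218, 219 and 220.4 CPM in the controls, given here and below in the order of replicates 1 to 5. The Dot1l-cKO samples had 171, 150.1, 218, 199 and 256 CPM, in the same order. The controls lay close together, while the Dot1l-cKO samples spread to both sides of them, with replicate 2 lowest and replicate 5 above every control. The coefficient of variation was 4.22% in controls and 20.6% in Dot1l-cKO. For Notch1 the fitted difference on the log2 scale was -0.15 ± 0.12 (SE, 95% interval -0.42 to 0.13, adjusted p-value 0.566.)

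Notch2 (ENSMUSG00000027878, chromosome 3 from 98013527 to 98150361, plus strand) is another receptor known from cortical progenitors. It had 188, 220.4, 274, 183 and 213 CPM in the controls. Dot1l-cKO replicates 1 to 5 had 152, 143, 218, 172 and 275 CPM. The highest Dot1l-cKO sample, replicate 5, matched the highest control, replicate 3, so the groups overlapped over most of their range. The fitted difference on the log2 scale was -0.17 ± 0.18 (SE, 95% interval -0.56 to 0.23, adjusted p-value 0.659.)

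Notch3 (ENSMUSG00000038146, chromosome 17 from 32120820 to 32166852, minus strand), which besides progenitors marks pericytes and smooth muscle of vessels, had 46.5, 69.4, 67.9, 45.7 and 47.1 CPM in the controls. It had 41.6, 32.6, 57.3, 41.6 and 60.2 CPM in Dot1l-cKO replicates 1 to 5. Among the controls the header-57 libraries stood well above the other 3, whereas in Dot1l-cKO one of them was the lowest of all samples. The fitted difference on the log2 scale was -0.25 ± 0.19 (SE, 95% interval -0.66 to 0.16, adjusted p-value 0.514.) Without the header-57 libraries the sign turned for Notch2 and Notch3, to log2 fold changes of 0.038 and 0.040 (edgeR adjusted p-values of 0.942 and 0.911).

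Receptors and some ligands are also made by vessels and their surroundings, and the samples differed in such tissue. The summed level of 8 endothelial markers ranged from 137 to 252.1 CPM in controls and from 124 to 284 CPM in Dot1l-cKO, and that of 7 markers of pericytes and smooth muscle from 88.1 to 140.0 and from 81.0 to 154.2 CPM. Dot1l-cKO replicate 5, which had the highest Notch1, Notch2 and Notch3 of its group, also had the highest sum of both lists, and Dot1l-cKO replicate 2, with the lowest Notch1, Notch2 and Notch3, had the lowest of both. Control replicate 3, with the highest Notch2 of its group, had the highest endothelial sum among the controls. Control replicate 2 went the other way, with the highest Notch1 and Notch3 of its group, the lowest pericyte and smooth muscle sum (88.1 CPM) and an endothelial sum of 148 CPM. Control replicate 5 had the highest pericyte and smooth muscle sum of the controls (140.0 CPM) but 47.1 CPM of Notch3, against 69.4 CPM in control replicate 2. In Dot1l-cKO replicate 1 these sums, 175 CPM endothelial and 147 CPM, were below replicate 5 only, while its Notch1 and Notch2 were above replicate 2 only. None of these 15 markers was called different between the genotypes, and none was at 0. Their part in the spread of the receptors was not tested.

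Ligands come in a Delta-like and a Jagged class. Dll1 (ENSMUSG00000014773, chromosome 17 from 15367354 to 15376872, minus strand), the Delta-like ligand of newborn neuronal cells, had 106, 127, 127, 105 and 86.7 CPM in the controls. Its level in Dot1l-cKO replicates 1 to 5 was 78.9, 106, 104, 96.4 and 95.6 CPM. In both groups the header-57 libraries were the highest. For Dll1 the fitted difference on the log2 scale was -0.20 ± 0.12 (SE, 95% interval -0.45 to 0.06, adjusted p-value 0.379.)

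Dll3 (ENSMUSG00000003436, chromosome 7 from 28293553 to 28302238, minus strand) is a divergent ligand that dampens Notch within the cell that makes it. It had the fewest counts of the members, 655 to 1115 per sample. The controls had 15.1, 19.6, 14.7, 16.1 and 12.3 CPM and the Dot1l-cKO samples 12.4, 11.4, 15.7, 10.9 and 12.3 CPM. Most Dot1l-cKO samples sat at the level of the lowest control, and replicate 3 sat among the controls. The fitted difference on the log2 scale was -0.31 ± 0.14 (SE), and its 95% interval, -0.61 to -0.01, lay below 0 before adjustment, but the adjusted p-value was 0.223.

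Jag1 (ENSMUSG00000027276, chromosome 2 from 137081456 to 137116644, minus strand), the Jagged ligand of progenitors and vessels, had 29.1, 28.9, 36.7, 24.6 and 31.1 CPM in the controls. Dot1l-cKO replicates 1 to 5 had 23.8, 26.6, 34.8, 21.5 and 28.3 CPM. Replicate 3 was the highest of each group and replicate 4 the lowest of each. Each Dot1l-cKO sample was below the control of the same number, by 0.07 to 0.29 on the log2 scale. The fitted difference on the log2 scale was -0.16 ± 0.14 (SE, 95% interval -0.46 to 0.15, adjusted p-value 0.581.)

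Rbpj (ENSMUSG00000039191, chromosome 5 from 53466152 to 53657362, plus strand) encodes the DNA-binding protein through which all Notch receptors act, and which recruits repressors to the same sites when no Notch is present. It had 145, 157, 151, 123 and 116 CPM in the controls and 129, 105, 141, 102 and 119.9 CPM in Dot1l-cKO replicates 1 to 5. The lowest control lay below 3 of the 5 Dot1l-cKO samples. For Rbpj the fitted difference on the log2 scale was -0.22 ± 0.11 (SE, 95% interval -0.47 to 0.03, adjusted p-value 0.323.) Pseudogene copies of Rbpj could take or lend reads, but those listed, Rbpj-ps1 and Rbpj-ps3, reached at most 2 and 49 counts in a sample.

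Among the effectors, Hes1 (ENSMUSG00000022528, chromosome 16 from 30064384 to 30067796, plus strand) encodes a repressor of proneural genes that keeps progenitors dividing. The controls had 36.7, 43.0, 50.1, 31.0 and 27.3 CPM. Dot1l-cKO replicates 1 to 5 had 26.4, 34.4, 31.1, 29.2 and 31.2 CPM. The control values were spread widely and the lowest, replicate 5, was within the narrow band of the Dot1l-cKO samples. The coefficient of variation was 24.4% in controls and 9.64% in Dot1l-cKO. For Hes1 the fitted difference on the log2 scale was -0.31 ± 0.15 (SE, 95% interval -0.64 to 0.03, adjusted p-value 0.286.)

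Hes5 (ENSMUSG00000048001, chromosome 4 from 154960923 to 154962371, plus strand), the effector most tied to Notch signalling in radial glia and the gene whose promoter is printed above, had 77.8, 94.6, 88.3, 72.2 and 55.7 CPM in the controls. In Dot1l-cKO replicates 1 to 5 it had 72.8, 63.3, 72.7, 61.9 and 68.1 CPM. The header-57 controls were the highest samples and control replicate 5 was the lowest, with every Dot1l-cKO sample between them. The fitted difference on the log2 scale was -0.20 ± 0.13 (SE, 95% interval -0.47 to 0.08, adjusted p-value 0.429.)

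Hey1 (ENSMUSG00000040289, chromosome 3 from 8663359 to 8667256, minus strand) encodes a related repressor that is made in cortical progenitors and in vessels. The controls had 61.9, 61.3, 61.8, 53.1 and 46.2 CPM. The Dot1l-cKO samples had 43.0, 46.1, 43.5, 42.4 and 44.4 CPM. All Dot1l-cKO samples were below all controls, though control replicate 5 and Dot1l-cKO replicate 2 nearly touched. Hey1 was the 1 member of 10 whose groups did not overlap in this direction, beside a background of 2.17% of all genes tested, and 8.34% in either direction. The mean of Hey1 fell from 56.8 ± 7.03 CPM to 43.9 ± 1.44 CPM (SD, n = 5 a group). On the log2 scale this was -0.37 ± 0.09 (SE, 95% interval -0.56 to -0.18, edgeR adjusted p-value 0.0248).

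The direction of Hey1 was the same in each of the 22 other fits made, with log2 fold changes from -0.45 to -0.31, but the call was not. The edgeR adjusted p-value was 0.0697 without control replicate 1, 0.0658 without control replicate 2, 0.063 without Dot1l-cKO replicate 1, 0.0578 without Dot1l-cKO replicate 3 and 0.0624 without Dot1l-cKO replicate 4, and it was 0.0042 without control replicate 5. It was 0.0564 with the level of Xist, a marker of female embryos, as a covariate.

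**Figure D2:**
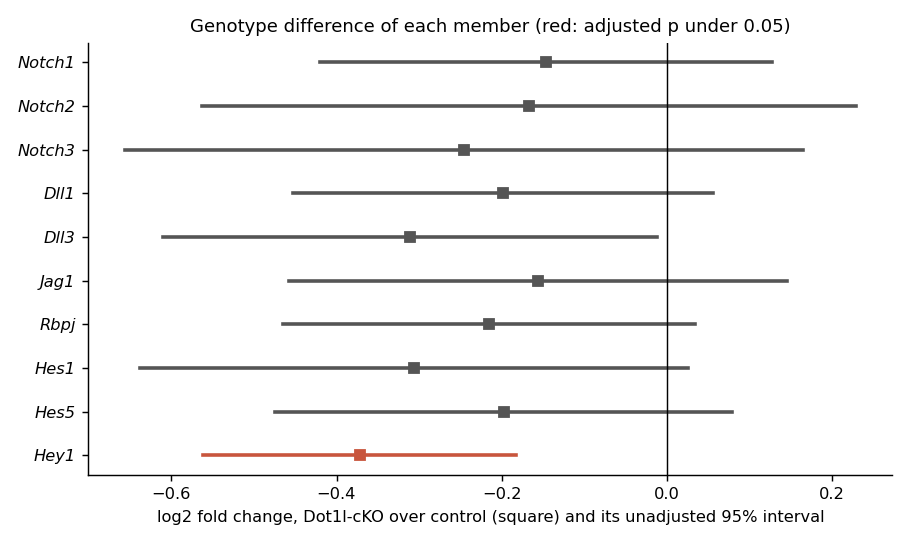
Log2 fold change of each member, Dot1l-cKO over control (squares; 5 samples a group), with the unadjusted 95% interval of the edgeR fit as a bar. All 10 squares lie left of 0, from -0.37 for Hey1 to -0.15 for Notch1, and Hey1, in red, is the member with an adjusted p-value under 0.05.

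Whether members of a role changed unequally was tested on the log2 ratio of each pair within a sample, for the 9 pairs within receptors, ligands and effectors. None passed an exact two-sided permutation test over the 10 samples, whose smallest possible p-value is 0.00794. The smallest was for Hes5 over Hey1, whose log2 ratio was 0.44 ± 0.14 in controls and 0.62 ± 0.13 in Dot1l-cKO (SD, n = 5 each), a difference of 0.19 (exact permutation p = 0.0635, adjusted p = 0.571 over the 9 pairs). For Hes1 over Hey1 the difference was 0.09 (exact permutation p = 0.389, adjusted p = 0.771). So the call for Hey1 and the lack of a call for Hes1 and Hes5 do not show that these genes responded differently.

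The differences were also taken within each set of libraries. Within the 4 header-57 libraries, 2 against 2, all 10 members were lower in Dot1l-cKO, by 0.10 to 0.67 in mean log2 CPM. Within the other 6, 3 against 3, 9 of 10 were lower by this measure, and Notch3 was not. The edgeR fit of these 6 put Notch2 above 0 as well, at 0.038. Hes5 differed by -0.43 and -0.01 within the 2 sets, Hes1 by -0.51 and -0.12, Notch2 by -0.48 and -0.01 and Notch3 by -0.67 and 0.02. Hey1 differed by -0.46 and -0.30, and Dll3 by -0.34 and -0.28. In the controls the header-57 libraries had more transcript than all the other 3 for 6 members, Notch2, Notch3, Dll1, Rbpj, Hes1 and Hes5, and in Dot1l-cKO for 1 member, Dll1. The share of all genes that differed in this way was not taken, so whether it is particular to the members was not tested. A test of whether the genotype difference itself differed between the 2 sets called none of the 17039 genes in edgeR. It does not compare the levels of the 2 sets. In it 1071 genes had an unadjusted p-value under 0.05, and the members had adjusted p-values from 0.728 to 0.967. The lowest unadjusted values among the members were 0.064 for Notch3, 0.0657 for Hes5 and 0.0762 for Hes1. With the header number as a covariate the Hey1 difference was -0.37 (edgeR adjusted p-value 0.0131). In fits of the other 6 libraries alone and of the 4 header-57 libraries alone its adjusted p-values were 0.159 and 0.173.

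**Figure D3:**
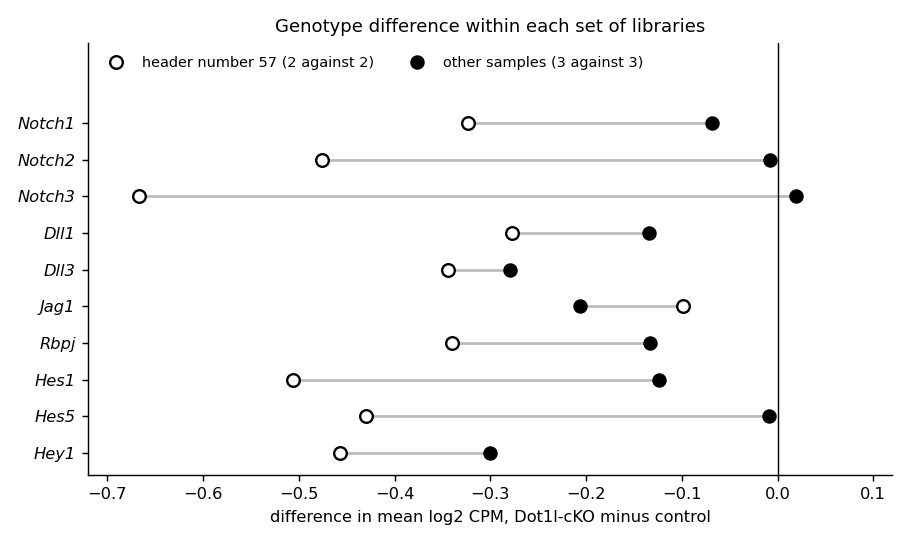
Difference in mean log2 CPM, Dot1l-cKO minus control, for each member within the 4 header-57 libraries (open points, 2 against 2) and within the other 6 (filled points, 3 against 3). Open points range from -0.67 for Notch3 to -0.10 for Jag1, filled points from -0.30 for Hey1 to 0.02 for Notch3, and Jag1 is the member whose filled point lies farther from 0.

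Levels of different genes were compared roughly per kilobase of exon union, which counts every annotated exon and can exceed the length of any 1 transcript. By this measure Hes5 stood first in controls at 57.02 ± 11.1 CPM per kb, over Dll1 at 26.1 ± 4.04 (SD, n = 5). The samples of these members did not overlap. Below them came Notch2 at 20.02 ± 3.38, Hes1 at 18.5 ± 4.499, Hey1 at 17.4 ± 2.15 and Notch1 at 15.5 ± 0.65 CPM per kb, neighbours whose ranges overlapped in turn from Dll1 downwards. Rbpj, at 10.8 ± 1.40, was apart from Notch1 above it and from Notch3 below it, at 6.84 ± 1.51 CPM per kb. Dll3 at 5.46 ± 0.93 and Jag1 at 5.16 ± 0.75 CPM per kb closed the order, and these last 3 overlapped in turn. In Dot1l-cKO the order was the same but for 2 exchanges of neighbours that overlapped in both groups, Notch1 with Hey1 and Jag1 with Dll3.

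**Figure D4:**
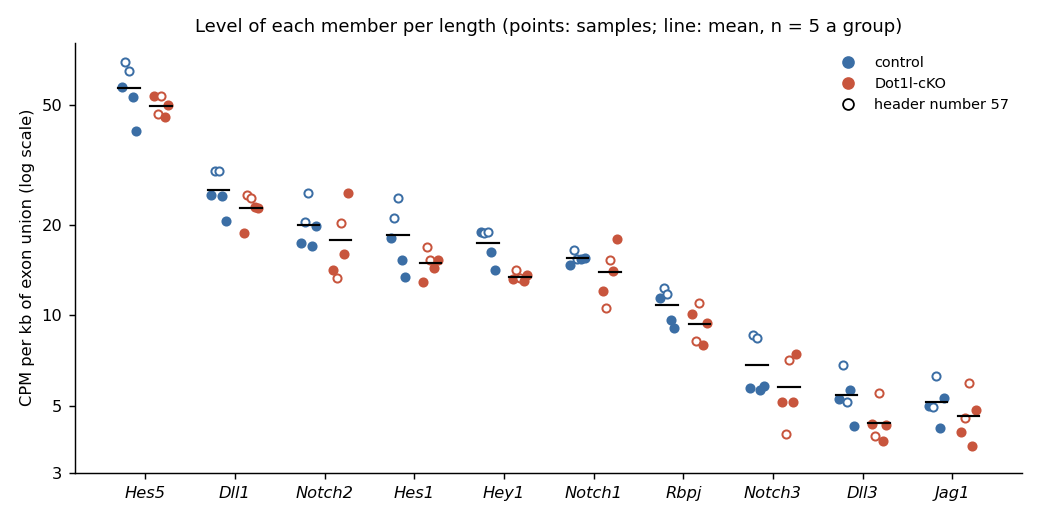
CPM per kilobase of exon union (log axis) for the members in the order of their control means, with control in blue, Dot1l-cKO in red and the header-57 libraries open. Points are samples and lines are means (n = 5 a group). Hes5 lies above every other member, at 57.02 in controls and 49.7 in Dot1l-cKO, and Notch3, Dll3 and Jag1 lie lowest.

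The genes whose samples rose and fell most like those of Hes1 and Hes5 were sought among 10349 expressed genes, by Pearson's r of log2 CPM over the 10 samples after each group was centred on its mean. Nearest to Hes1 were Gldc, a subunit of the glycine cleavage system (r = 0.96), Ddx11, a DNA helicase (r = 0.96), and Bckdhb, of branched-chain amino acid breakdown (r = 0.95). Of the other members, Dll1 stood at place 79 with r = 0.91 and Hey1 at place 214 with r = 0.86, while Notch1 had r = 0.01. Nearest to Hes5 were Epb41l5 (r = 0.98), Miga1 (r = 0.98) and Dtl (r = 0.96), and of the members Rbpj was at place 99 with r = 0.86 and Hey1 at place 187 with r = 0.82. The 4 header-57 libraries are among the 10 points of every such value, so genes that differ between the library sets come out alike.

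The rest of the pathway was read from a list of 68 further genes, of which 65 were tested. Hes2, Hes3 and Hes7 averaged under 1 CPM over the samples and did not pass the filter on low counts. Of the 65, 1 was called higher and 1 lower, beside the background of 7.11%, and the median log2 fold change was -0.07, with 45 below 0 and 20 above. The lower gene was Fbxw7, the subunit of a ubiquitin ligase that marks the Notch intracellular domain, among other proteins, for destruction. Its controls had 91.8, 94.9, 86.7, 93.0 and 87.9 CPM and its Dot1l-cKO samples 70.8, 80.3, 77.3, 73.6 and 67.4 CPM. The groups did not overlap, and the fall was -0.30 ± 0.06 on the log2 scale (SE, edgeR adjusted p-value 0.0169). The edgeR adjusted p-value of Fbxw7 was 0.0505 without control replicate 4 and 0.434 in the header-57 libraries alone. It was 0.195 with the average log2 CPM of the ventral telencephalon markers as a covariate.

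The higher gene was Neurl1a, one of the ubiquitin ligases that act on Notch ligands. It had 6.09, 6.09, 5.64, 6.79 and 10.01 CPM in the controls and 11.4, 9.54, 12.4, 15.2 and 9.94 CPM in Dot1l-cKO replicates 1 to 5. Control replicate 5 overlapped the Dot1l-cKO range and the other controls lay below it. The rise was 0.76 ± 0.18 on the log2 scale (SE, edgeR adjusted p-value 0.0287). Without control replicates 1, 2, 3 and 4 in turn the edgeR adjusted p-value was 0.0808, 0.0727, 0.0513 and 0.0689. Without Dot1l-cKO replicates 1, 3 and 4 in turn it was 0.0615, 0.065 and 0.0713. With Xist as a covariate the adjusted p-value of Neurl1a was 0.0557, without the header-57 libraries 0.154 and in those alone 0.177.

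DESeq2 called 5 of the 65, adding Tle1, Tle2 and Nedd4 as lower to the same 2 genes, and the replicate block added Tle2 (log2 fold change -0.58, edgeR adjusted p-value 0.0432), corepressors and a ubiquitin ligase named after these calls were seen. None of the other groups of the pathway held a gene called by the edgeR test without the block. All 7 nuclear coactivators, among them the Mastermind proteins Maml1, Maml2 and Maml3 that lock Notch to RBPJ, had log2 fold changes below 0, from -0.27 to -0.07, and so did 12 of 14 nuclear corepressors and all 6 glycosyltransferases and maturation enzymes, with medians of -0.16 and -0.07. The receptor-cutting proteases and gamma-secretase subunits had 5 of 9 below 0, and the 4 further effectors tested, Hes6, Hey2, Heyl and Nrarp, had 1. Receptor turnover and inhibitors had 10 of 13 below 0, ligand ubiquitination and endocytosis 2 of 6 and non-canonical ligands 1 of 3. Over all genes tested 51.2% were below 0. None of the coactivators was called, and the common signs within roles were not tested. The remaining canonical receptor, Notch4, had a log2 fold change of -0.08 (edgeR adjusted p-value 0.846), and of the remaining ligands Dll4 had 0.03 (adjusted p-value 0.968) and Jag2 0.16 (adjusted p-value 0.522). Notch4 and Dll4 are best known from endothelium, and Dll4 was highest in the samples with the most endothelial marker transcript of each group, at 8.02 CPM in control replicate 3 and 10.1 CPM in Dot1l-cKO replicate 5.

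**Figure D5:**
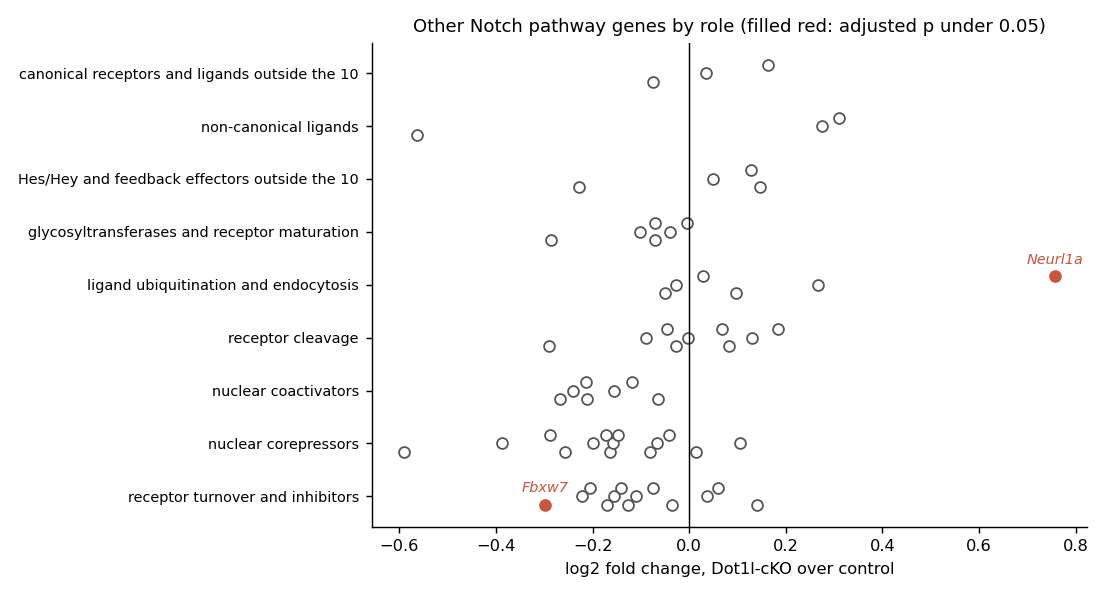
Log2 fold change, Dot1l-cKO over control (5 samples a group), of the 65 further pathway genes tested, 1 point a gene in a row for each role. The filled red points are Fbxw7 at -0.30 and Neurl1a at 0.76, with adjusted p-values under 0.05. The 7 coactivators all lie left of 0, and none of them was called.

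The cell types in the samples were followed by marker lists, which do not show which cells express the members. Of 7 radial glia markers 4 were called higher, Vim, Fabp7, Slc1a3 and Hopx, with log2 fold changes of 0.53, 0.62, 0.43 and 1.099 (edgeR adjusted p-values of 0.00451, 0.0122, 0.00447 and 0.0153). Over all genes tested 5.67% were called higher. The sum of the 7, which is weighted to the more abundant markers, ranged from 2094 to 2574 CPM in controls and from 2762 to 3108 CPM in Dot1l-cKO, without overlap. Sox2, Nes and Prom1 had -0.38, -0.16 and -0.34 and did not pass the test. Pax6, a progenitor marker in the study that is listed here under dorsal telencephalon, was called lower, as given above. Markers of progenitors thus moved in both directions. The Hopx difference was lower in the header-57 libraries by a log2 value of -0.78 (edgeR unadjusted p-value 0.00759, adjusted p-value 0.728). For Vim, Fabp7 and Slc1a3 the same edgeR test, of the genotype difference between the library sets, gave unadjusted p-values of 0.388, 0.267 and 0.739. None of the 8 markers of intermediate progenitors and proneural factors was called different, among them Neurog1 and Neurog2, which the Hes proteins repress. The sum of those 8 ranged from 696 to 1027 CPM in controls and from 802 to 972 CPM in Dot1l-cKO.

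Of 7 markers of ventral telencephalon, Nkx2-1 averaged under 1 CPM over the samples and was not tested. The other 6 had log2 fold changes from -2.07 to -1.56, none of them called. The sum of the 7 ranged from 35.4 to 239 CPM in controls and from 3.45 to 75.8 CPM in Dot1l-cKO. None was at 0. With the average log2 CPM of the 7 ventral markers as a covariate the log2 fold change of Hey1 was -0.45 (edgeR adjusted p-value 0.0665). In that fit Notch2 had -0.53 (edgeR adjusted p-value 0.165). Among 6 markers of microglia and blood, Cx3cr1, Csf1r and Aif1 of microglia were called higher, with log2 fold changes of 0.93, 0.88 and 0.77 (edgeR adjusted p-values of 0.00165, 0.0414 and 0.0382). With the replicate block the adjusted p-value of Aif1 was 0.073, and with 1 sample left out the calls of Csf1r and Aif1 were lost in 8 of 10 fits each. The sum of those 6 ranged from 279 to 1172 CPM in controls and from 442 to 1206 CPM in Dot1l-cKO. Of 4 markers of meninges and 5 of choroid plexus and cortical hem none was called, and the sums ranged from 11.6 to 374 and from 5.10 to 609 CPM in controls and from 17.6 to 346 and from 6.70 to 155 CPM in Dot1l-cKO. The part of microglia, meninges and choroid plexus in the levels of the members was not tested.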

How the data were processed

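RNA-seq counts of 10 samples, 5 a group, were analysed, with groups and replicate numbers from the sample titles. Per the labels and the study's methods, the authors trimmed reads with Trim Galore 0.2.8, mapped them to mm10 with TopHat2 2.0.9 and counted them per Ensembl gene with HTSeq 0.6.0 in reverse-stranded mode. The deposited counts are raw whole numbers. The other deposited tables hold the same counts divided by a DESeq2 size factor, so their unit is a normalised count, a signal that is not CPM, and they entered alternatives only. GENCODE M21, on the same build, gave a symbol to 42548 of 43629 gene identifiers, and the rest held 0.268% of the counts.

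Genotypes were compared in edgeR 4.0.16 (R 4.3.3) with filterByExpr, TMM and the quasi-likelihood test without covariates, adjusted by Benjamini-Hochberg over all genes tested. The standard error is the log2 fold change divided by the root of F, and the interval follows from it. CPM use TMM library sizes, log2 CPM a prior count of 2, and levels per kb the exon union. The members and lists were chosen with earlier results of these data known. All members and Dot1l are named, further pathway genes where called, Notch4, Dll4 and Jag2 always, and the 3 genes nearest to Hes1 and to Hes5. Another gene of this rule is not reported here. Beyond it, marker genes and effectors were named after their values were seen. Tests were tried on simulated counts.

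Alternatives were DESeq2 1.42.0, its size factors, no filter, at least 10 counts in every sample, a replicate block, header number 57 or Xist as a covariate, no mitochondrial genes, limma 3.58.1 on log2 of the normalised counts plus 1, the ratios from the same values, and each sample left out. Fits without or of only the header-57 libraries, and a ventral marker covariate, were chosen after seeing the data. The titles give both groups numbers 1 to 5, and no source says what they share. Deviations of same-numbered samples from their group means correlated at 0.131 to 0.597, with a mean of 0.290. Samples of different numbers had a mean of -0.0717, but control replicate 3 and Dot1l-cKO replicate 5 reached 0.446. Of the 10 samples, 5 correlated best with their own number. The numbers were taken as pairs in alternatives such as the replicate block, and the main fit was unpaired. Same-numbered samples of the 2 groups also shared their header number, which was 51, 57, 57, 90 and 154 for replicates 1 to 5. The main fit does not use this. Reads carry no molecular identifiers. The pairs of replicates differed far beyond sampling noise, so none is a library deposited again. Each sample is a different animal per the methods. Sequences are from RefSeq, GRCm38.p6.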

Additional observations from a re-analysis of the deposited data

Results flagged for a closer look

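Of 34 sets of 5 samples examined (17 genes in 2 groups), 2 held a sample far from the others, where chance gives about 1 in 20. Dll4 was high in control replicate 3, at a log2 CPM of 3.01 (536 counts) beside a group median of 2.40, and its gap to the next sample was 0.713 of the range of the controls. The Dll4 of that sample goes with the highest endothelial and meningeal marker sums among the controls, 252.1 and 374 CPM, whose part in the level was not tested. Dot1l was low in Dot1l-cKO replicate 2, at a log2 CPM of 4.33 (1158 counts) beside a group median of 5.40, with a gap of 0.717 of the range. The same library had the lowest Notch1, Notch2 and Notch3 of all samples, and without it their log2 fold changes were -0.062, -0.079 and -0.14. Without Dot1l-cKO replicate 5, the highest of its group for these genes, they were -0.26, -0.34 and -0.36.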

How the results depend on the processing

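All 10 members kept a log2 fold change below 0 in each of the 22 other fits, except Notch2 and Notch3 without the header-57 libraries (0.038 and 0.040). Hey1, the 1 member called, was not called, leaving 0, with Xist or the ventral markers as a covariate, without the header-57 libraries, in those 4 alone, and in 5 of 10 leave-one-out fits, which called 0 to 1 members. The other 65 genes held 5 called genes under DESeq2, 1 with Xist, 1 without the header-57 libraries, 0 in those alone, and 0 to 3 with 1 sample left out. Over all genes the 1212 calls became 2011 under DESeq2 (663 lower), 745 without the header-57 libraries (590 higher, 155 lower), 1 in those alone (1 higher, 0 lower) and 513 with the ventral covariate (446 higher, 67 lower). The genes called lower numbered 495 with the replicate block and 514 with the header covariate. With 1 sample left out there were 750 to 1357 calls, 624 to 1076 higher and 126 to 343 lower. The replicate block changed no call among the members, and among the other genes named it turned Dll4 (-0.064), added Tle2 and lost Aif1. Dll4 was also below 0 under limma (-0.092), in the header-57 libraries alone (-0.65) and with the ventral covariate (-0.50), Dot1l under limma (-0.0058) and in the header-57 libraries alone (-0.37), and Notch4 was above 0 without them (0.17). Single samples moved some members by over 1.5 times: Notch1 was -0.098 and Notch2 -0.095 without Dot1l-cKO replicate 1, Notch2 was -0.067, Jag1 -0.075, Hes1 -0.18 and Notch3 -0.16 without control replicate 3, Notch3 was -0.15 and Hes5 -0.12 without control replicate 2, Hes5 was -0.30 without control replicate 5, and Jag1 was -0.27 and -0.084 without Dot1l-cKO replicates 3 and 4. With 1 sample left out Notch4 ranged from -0.18 to 0.032, Dll4 from -0.29 to 0.21, Dot1l from -0.046 to 0.25, and the difference in log2 ratio from -0.069 to 0.078 for Notch1 over Notch2, from -0.017 to 0.11 for Notch2 over Notch3 and from -0.13 to 0.039 for Dll1 over Jag1. Fits of fewer samples have fewer degrees of freedom, and the cause of the other changes was not tested. The members had 655 to 18328 counts a sample.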
